A study of Homo sapiens with 2 samples.

Results

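MHC class I presents peptides from inside the cell at its surface, and 9 genes of this pathway were followed in TPC-1 cells, a line from a human papillary thyroid carcinoma with a fusion of CCDC6 to the receptor tyrosine kinase RET. The genes were given by name, with earlier results of these data known: the heavy chains HLA-B, HLA-C and HLA-E, the light chain B2M, the peptide transporter subunits TAP1 and TAP2, the loading factor TAPBP, the trimming enzyme ERAP1 and the transactivator NLRC5. They are 9 of 58884 genes in the table, each found once by its identifier on the primary assembly. One library came from TPC-1 cells given a control siRNA and 1 library from TPC-1 cells given an siRNA against the phosphate exporter XPR1. Neither the siRNA sequences nor the hours between transfection and harvest are given in the labels. With 1 library in each group there is no replicate and no test of the conditions, so higher and lower describe these 2 libraries. Levels are in TPM, a share of all transcripts corrected for gene length. XPR1 itself was 39.2 TPM in control and 5.31 TPM in the knockdown library.

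A class I molecule is a heavy chain bound to beta-2 microglobulin and a short peptide. Peptides are cut by the proteasome, carried into the endoplasmic reticulum by the TAP transporter, trimmed by ERAP1 and loaded with the help of tapasin, which TAPBP encodes. Without B2M or peptide most heavy chains do not reach the surface, where CD8 T cells and natural killer cells read them. Thyroid epithelium, like most nucleated cells, carries class I, and interferon, NF-kB and NLRC5 raise transcription of its genes.

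All 9 genes were transcribed in both libraries, and they did not move as a block. NLRC5 was at least 1.5-fold higher after XPR1 siRNA, HLA-E and TAP2 were at least 1.5-fold lower, and the other 6 were within 1.5-fold. These counts use differences on the log2(TPM + 1) scale, which understates differences of low genes. The 1 of 9 higher can be read against 21.7% higher by the same measure among the 16319 genes whose mean reached 1 TPM. The 2 of 9 lower can be read against 16.6% of those genes that were lower. Counting both directions, 3 of 9 were past the line, against 38.3% of all genes compared. These shares are near those of all genes. The median difference over the 9 genes was 0.09, against 0.05 over all genes compared, whose lower and upper quartiles were -0.37 and 0.51. Summed over the 9 genes, the level was 1951 TPM in control against 1940 TPM after XPR1 siRNA.

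**Figure D1:**
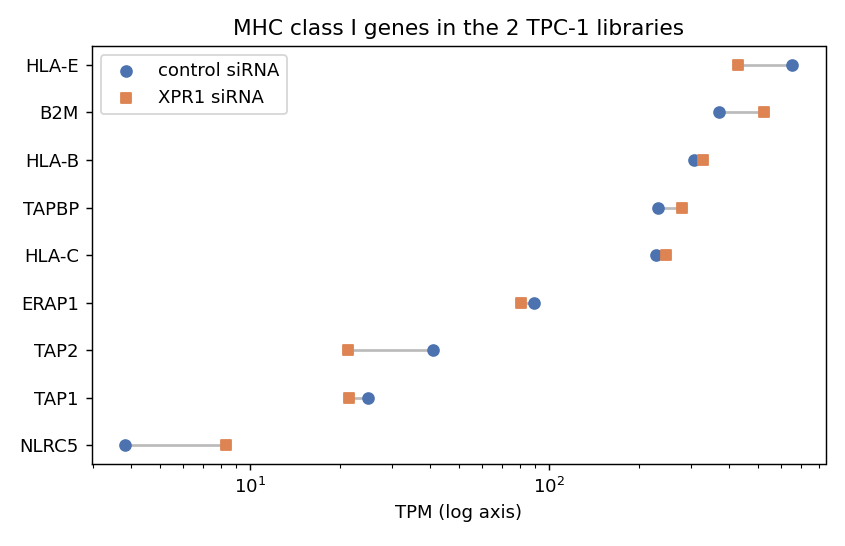
Level of the 9 class I genes in each library, as TPM on a log axis, with 1 point per library (circles for control siRNA, squares for XPR1 siRNA). The order from HLA-E to NLRC5 spans 170.5-fold in control and 63.25-fold from B2M to NLRC5 after XPR1 siRNA.

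The cells carried some of the marks of their lineage. Of 8 thyroid markers, the transcription factor PAX8 was 588.1 and 408.6 TPM, FOXE1 11.1 and 13.7 TPM and HHEX 13.0 and 12.3 TPM. The cadherin CDH16 was 3.04 and 17.1 TPM, 5.63-fold higher (4.10 to 7.84). Thyroglobulin (TG) was 1.06 and 0.929 TPM, and NKX2-1, TSHR and SLC5A5, which mark differentiated thyroid cells, were listed at 0 in both libraries. Of 6 epithelial markers, KRT18 was 135.9 and 94.0 TPM, KRT8 49.8 and 37.0 TPM and KRT7 11.1 and 3.39 TPM. KRT19 was 0.304 and 1.05 TPM, CDH1 had 3 and 1 reads, and EPCAM was listed at 0 in both libraries. The 8 fibroblast markers summed to 28.5 and 42.5 TPM, with COL1A1 at 1.04 and 6.67 TPM. The 8 endothelial markers summed to 6.93 and 2.92 TPM. Of 20 leukocyte markers, 10 were listed at 0 in both libraries, and the 20 summed to 5.53 TPM in control against 5.46 TPM after XPR1 siRNA. PTPRC, the common leukocyte antigen, had 1 read in the control library and 0 in the other. By reads recovered from the TPM values, the libraries held about 15780000 and 15150000 counted reads. Mitochondrial transcripts made up 27.3% and 27.5% of the TPM. The 9 genes had between 200 and 12975 reads each, and their 95% Clopper-Pearson intervals of the ratio cover counting error only. Those intervals lay above 1 for 5 genes and below 1 for 4, against 32.3% and 24.7% of the 16295 compared genes with an interval. Intervals narrow as reads rise, and these shares were not matched for reads. They hold for TPM as deposited, where HLA-B and HLA-C differed by 0.093 and 0.108 on the log2(TPM + 1) scale. With median-of-ratios scaling of the libraries those 2 differences were 0.038 and 0.053, and no interval was computed. In bulk RNA, fewer cells expressing a gene and less RNA per cell cannot be told apart.

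Promoter sequences of these genes are shown because several factors known to act on class I promoters had transcripts that differed between the libraries. Binding was not measured, and a link between the matches and the levels was not tested. RefSeq promoters on GRCh38.p14 were found for 7 of the 9 genes, not for HLA-E and NLRC5. Stretches of 6 are printed, and those of ERAP1, with a kappaB match in one window and core matches in the other, are not. The stretches below are printed 5′ to 3′ in the direction of transcription and end before the start site. Capitals mark the kappaB consensus (bound by NF-kB), the interferon regulatory factor core AANNGAAA or its longer form, GAAA with 2 bases between it and a second GAAA, and TGACG followed after 18 to 22 bases by ATTGG. That last pair resembles the X and Y boxes, where RFX, CREB and NF-Y proteins assemble and recruit NLRC5. The 3 stretches with the pair come first.
HLA-B, chr6:31357246-31357366, minus strand: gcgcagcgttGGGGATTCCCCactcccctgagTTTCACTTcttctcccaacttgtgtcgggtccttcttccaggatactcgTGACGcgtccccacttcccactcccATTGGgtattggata
HLA-C, chr6:31272158-31272274, minus strand: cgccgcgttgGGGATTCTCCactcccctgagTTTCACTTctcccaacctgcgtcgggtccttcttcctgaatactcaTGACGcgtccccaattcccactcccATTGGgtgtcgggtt
B2M, chr15:44711363-44711482, plus strand: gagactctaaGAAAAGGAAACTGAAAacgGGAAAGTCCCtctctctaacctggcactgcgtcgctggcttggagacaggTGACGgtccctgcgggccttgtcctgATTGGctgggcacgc
TAP1, chr6:32853757-32853848, minus strand: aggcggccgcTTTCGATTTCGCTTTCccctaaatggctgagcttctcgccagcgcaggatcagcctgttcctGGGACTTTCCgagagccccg
TAP2, chr6:32838778-32838811, minus strand: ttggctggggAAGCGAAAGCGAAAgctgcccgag
TAPBP, chr6:33314079-33314144, minus strand: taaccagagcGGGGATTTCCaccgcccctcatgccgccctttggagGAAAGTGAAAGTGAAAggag

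The search covered the 250 bases before each start on both strands. The kappaB consensus was found for 6 of the 7 genes, all but TAP2, and in 9.96% of 35116 promoter windows of that length. AANNGAAA was found for all 7 and in 20.3% of windows. The longer form, which always contains the core, was found for B2M, TAP1, TAP2 and TAPBP and in 3.02% of windows. The spaced pair of TGACG and ATTGG was found for HLA-B, HLA-C and B2M and in 0.248% of windows. TAP1 and ERAP1 have 2 windows each, and a match in either was counted. A match shows the letters only.

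Among the heavy chains, HLA-B and HLA-C, the classical molecules that show peptides to CD8 T cells, were close in the 2 libraries. HLA-B (ENSG00000234745, chromosome 6, 31269491 to 31357188, minus strand of GRCh38) was 306.9 TPM in control against 327.4 TPM after XPR1 siRNA, a ratio of 1.07 (1.02 to 1.115). HLA-C (ENSG00000204525, chromosome 6, 31268749 to 31272130, minus strand) was 228.6 and 246.4 TPM, a ratio of 1.08 (1.02 to 1.14). Both sat near the middle of all compared genes, at percentiles 52.8 and 53.8 of the difference. HLA-B stood 1.34 times HLA-C per length in control and 1.33 times in the XPR1-siRNA library.

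HLA-E, a nonclassical heavy chain that shows leader peptides of other class I chains to the NKG2A receptor of natural killer cells, was lower after XPR1 siRNA. The gene (ENSG00000204592) is on the plus strand of chromosome 6, 30489467 to 30494205. Its level was 652.4 TPM in control against 429.7 TPM after XPR1 siRNA, from 8190 and 5190 reads. That is 1.52-fold lower (1.47 to 1.57), a difference of -0.60 just past the 1.5-fold line, which is 0.585 in size. HLA-E was the highest of the 9 genes in control, at rank 140 of 19945 protein-coding genes, and came after B2M at rank 211 in the XPR1-siRNA library. In a comparison chosen after the values were seen, HLA-E was 1.22 times the sum of HLA-B and HLA-C in control and 0.749 times that sum after XPR1 siRNA.

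Other heavy chains were low. HLA-F, a nonclassical chain, was 7.85 and 12.4 TPM, 1.58-fold higher (1.27 to 1.96), and its difference of 0.60 fell inside the 1.5-fold line with median-of-ratios or upper-quartile scaling or a pseudocount of 5. HLA-G had 2 reads in control and 1 after XPR1 siRNA, below the limit that a count of 0 allows.

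Heavy chain genes resemble each other, so reads can be shared. Of the 50-base windows in GENCODE 29 transcripts, 2.72% for HLA-B, 5.38% for HLA-C and 4.34% for HLA-E also stand identically in transcripts of another gene. The annotated span of HLA-B reaches into HLA-C, with which it shares 35 exonic bases. HLA-B also shares 542 exonic bases (17.8%) with AL671883.2, a pseudogene on the opposite strand that was listed at 0 in both libraries. How such reads were counted is not recorded in the labels, and reads of alleles unlike the reference may be missed in both libraries.

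B2M, the light chain shared by all class I molecules, was higher after XPR1 siRNA but short of 1.5-fold. The gene (ENSG00000166710) is on the plus strand of chromosome 15, 44711487 to 44718877. Its level was 372.7 TPM in control against 525.7 TPM after XPR1 siRNA, from 9560 and 12975 reads, a ratio of 1.41 (1.37 to 1.45). The difference of 0.495 (range 0.42 to 0.50 over the scalings and pseudocounts tried) placed it at percentile 74.5 of all compared genes. No 50-base window of B2M stands in another gene. The balance of light to heavy chain also differed, since B2M was 0.312 times the sum of HLA-B, HLA-C, HLA-E, HLA-F and HLA-G in control and 0.517 times after XPR1 siRNA. That sum was 1196 and 1016 TPM, and HLA-E was the only lower gene among its members above 1 TPM.

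**Figure D2:**
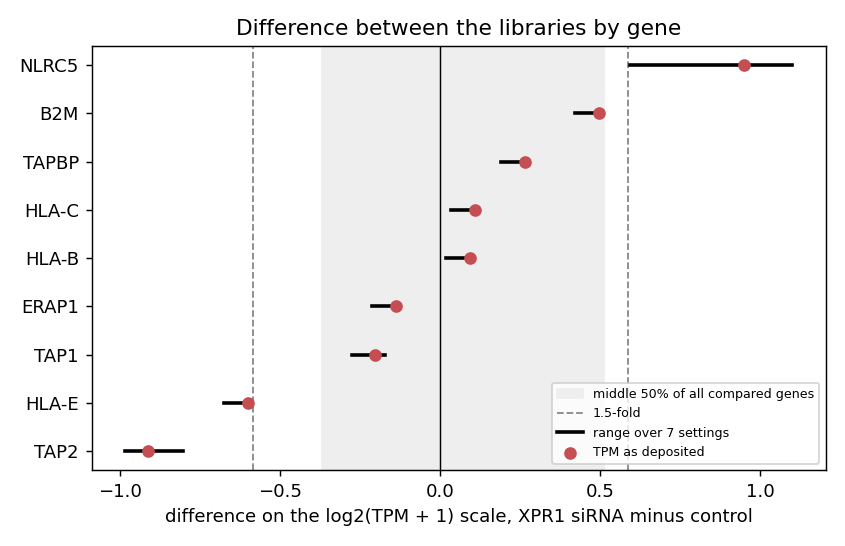
Difference of each gene on the log2(TPM + 1) scale, XPR1 siRNA minus control (points), with the lowest and highest value over 7 settings as black bars, the span between the quartiles of all compared genes in grey and 1.5-fold as dashed lines. NLRC5 lies right of the dashed line in every setting drawn, and HLA-E and TAP2 lie left of it. No gene changes sign, which a pseudocount or recovered reads could not bring about.

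TAP1 and TAP2 form the heterodimer that pumps peptides into the endoplasmic reticulum, and they differed by unequal amounts. TAP2 (ENSG00000204267, chromosome 6, 32821833 to 32838780, minus strand) was 41.0 TPM in control against 21.3 TPM after XPR1 siRNA, from 1105 and 553 reads. It was 1.92-fold lower (1.73 to 2.13), the lowest ratio of the 9 genes and at percentile 9.6 of all compared genes. TAP1 (ENSG00000168394, chromosome 6, 32845209 to 32853978, minus strand) was 24.8 and 21.4 TPM, 1.16-fold lower (1.02 to 1.32). In control TAP1 stood at 0.605 times TAP2 per length, and after XPR1 siRNA the 2 subunits were level, at 1.005 times. The TAP2 value carries an annotation limit, since 32.3% of its exonic bases also belong to AL669918.1, an overlapping gene on the same strand that was listed at 0 in both libraries. How reads in those bases were counted is not recorded, so the level of TAP2 beside TAP1 within a library is uncertain. TAP1 shares 9.49% of its exonic bases with the antisense gene PSMB8-AS1, which was 0.972 and 2.15 TPM, and the library kit does not mark strand.

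TAPBP encodes tapasin, which bridges TAP to empty class I molecules and edits their peptides. TAPBP (ENSG00000231925, chromosome 6, 33299694 to 33314387, minus strand) was 231.6 TPM in control against 278.3 TPM after XPR1 siRNA, a ratio of 1.20 (1.16 to 1.25). ERAP1, the aminopeptidase that trims peptides inside the endoplasmic reticulum, lies on chromosome 5 from 96760810 to 96808100 on the minus strand (ENSG00000164307). Its level was 89.4 and 81.1 TPM, 1.10-fold lower (1.045 to 1.16). These 2 genes lay at percentiles 63 and 37.5 of the difference, between the quartiles of all genes. Of the exonic bases of ERAP1, 6.94% overlap other genes, among them CAST on the opposite strand at 103.1 and 95.25 TPM.

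NLRC5, the transactivator that binds the X and Y box assembly of class I promoters, was the lowest of the 9 genes in level and had the highest ratio. NLRC5 (ENSG00000140853, chromosome 16, 56989485 to 57083531, plus strand) was 3.83 TPM in control against 8.31 TPM after XPR1 siRNA, from 200 and 418 reads. That is 2.17-fold higher (1.83 to 2.58), at percentile 88.7 of all compared genes. On the log2(TPM + 1) scale the difference was 0.95, and with pseudocounts of 5 and 0.1 it was 0.59 and 1.10.

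Other factors that act on class I promoters were followed in a list of 16 genes. Of these 15 were compared, and 3 were higher and 4 lower by 1.5-fold, beside 21.7% higher and 16.6% lower of all genes compared. The median difference was -0.11, beside 0.05 over all genes. Besides NLRC5, the higher genes were RFX5, a subunit of the RFX complex named after its values were seen, at 57.9 and 99.1 TPM, and the NF-Y subunit NFYB at 11.6 and 21.1 TPM. The other RFX, NF-Y and CREB genes of the list, also named after their values were seen, were within 1.5-fold. On the log2(TPM + 1) scale RFXAP differed by -0.318, RFXANK by 0.010, NFYA by 0.124, NFYC by -0.073 and CREB1 by -0.196. The 4 lower genes were IRF1, an interferon regulatory factor, and 3 NF-kB genes. IRF2, a listed relative of IRF1 outside the naming rule, was within 1.5-fold at 41.8 and 45.1 TPM. IRF1, which binds interferon response elements, went from 31.8 TPM in control to 7.85 TPM, 4.05-fold lower (3.52 to 4.67). The NF-kB genes NFKB1 and NFKB2 were 195.3 and 66.9 TPM and 207.8 and 71.5 TPM, 2.92-fold and 2.91-fold lower. RELB was 139.5 and 78.2 TPM. RELA (76.05 and 50.6 TPM), which the naming rule does not take, was also lower, with a difference of -0.579 just inside the line. CIITA, the class II counterpart of NLRC5 and also outside the naming rule, had 15 and 10 reads and was below 1 TPM.

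Of 20 listed interferon receptor and signalling genes 15 were compared. In this list 3 were higher and 5 lower, with a median of -0.25, where 21.7% of all genes were higher and 16.6% lower. With a pseudocount of 5 only 2 were lower, and with a floor of 5 TPM 3 were. The signal transducer STAT2 was 20.6 and 39.9 TPM, 1.94-fold higher (1.74 to 2.16), and the receptor kinase JAK1 was 147.8 and 244.3 TPM, 1.65-fold higher (1.59 to 1.72). USP18, a negative regulator of the type I receptor, was 2.115 and 6.94 TPM. IFNGR2, a chain of the interferon gamma receptor, was 232.1 and 76.05 TPM, 3.05-fold lower (2.83 to 3.29). The cytokine inhibitor SOCS3 was 2.38-fold lower, and IL10RB, a chain of the lambda interferon receptor, was 3.56 and 1.09 TPM. The interferon genes IFNG, IFNL1, IFNL2 and IFNL3, named after their values were seen, were listed at 0 in both libraries. For IFNG a count of 0 allows up to 0.584 TPM in control against 0.607 TPM after XPR1 siRNA.

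A list of interferon-stimulated genes held 48 genes in the table, TAP1 and PSMB9 of antigen presentation among them. Of the 35 compared, 13 were higher and 6 lower, with a median of 0.41. The shares over all genes were 21.7% and 16.6%, and the median 0.05. IFIT1, an antiviral RNA-binding protein, was 0.770 and 10.25 TPM, from 15 and 192 reads. OAS3 and IFI6 were 3.16-fold and 3.145-fold higher, and PARP9 was 2.85-fold higher. GBP5, a guanylate-binding protein, was 5.355 and 0.272 TPM, and the tryptophan tRNA ligase WARS1 was 188 and 31.3 TPM.

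**Figure D3:**
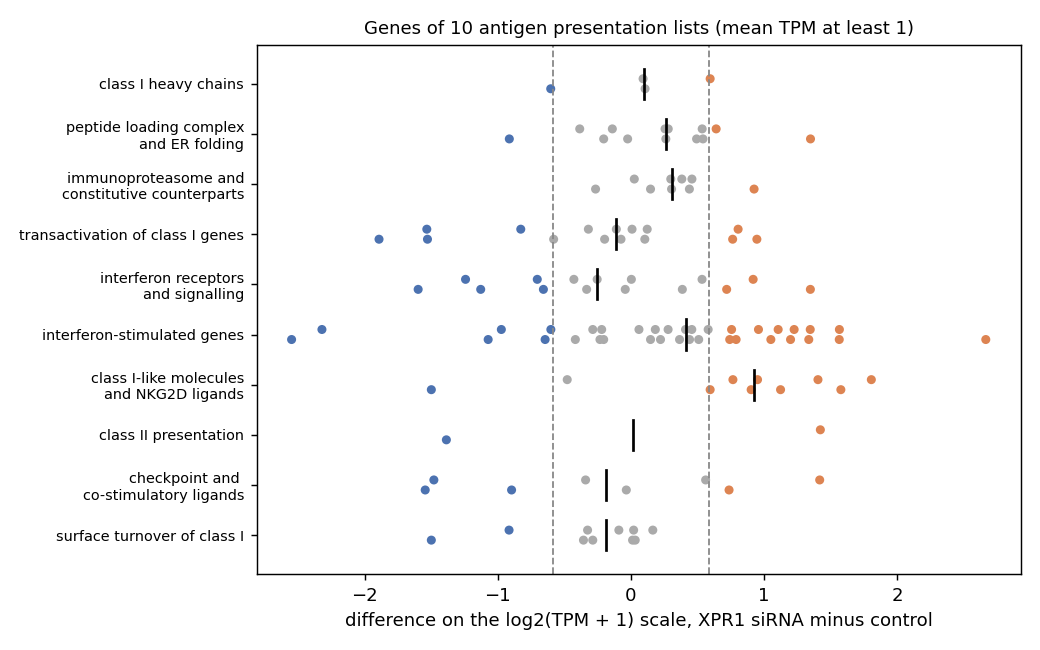
Difference on the log2(TPM + 1) scale for each gene of 10 fixed lists with a mean of at least 1 TPM, 1 point per gene and a black tick at the list's median. Orange points are at least 1.5-fold higher after XPR1 siRNA, blue points at least 1.5-fold lower and grey points within the dashed 1.5-fold lines.

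Within the loading machinery, the chaperone CALR stood out in size. CALR encodes calreticulin, which holds class I molecules in the loading complex and folds many other glycoproteins. Its level was 685.1 TPM in control and 1749 TPM in the knockdown library, a ratio of 2.55 (2.49 to 2.62). The list of loading and folding genes had 13 members, all compared, of which 2 were higher and 1 was lower (21.7% and 16.6% of all genes), and the median was 0.26. The other higher gene was LNPEP, an endosomal aminopeptidase, at 27.1 and 42.8 TPM, which fell inside the 1.5-fold line with upper-quartile scaling or a pseudocount of 5, leaving 1 higher. The single lower gene was TAP2. PDIA3, the thiol oxidoreductase that pairs with tapasin, was 449.7 and 653.2 TPM, and ERAP2 was 46.2 and 67.8 TPM. Calnexin, whose gene CANX the naming rule does not take, stood at 608.2 and 466.1 TPM.

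Upstream of TAP, the subunits of the immunoproteasome, the form that interferon induces, stayed low beside their constitutive counterparts. Of 9 genes, 1 was at least 1.5-fold higher and 0 were lower (21.7% and 16.6% of all genes), and the median was 0.31. The higher gene was PSMB5, a constitutive catalytic subunit, at 136.7 and 260.8 TPM, 1.91-fold higher (1.77 to 2.06). Its immune counterpart PSMB8 was 44.7 and 58.6 TPM, so the ratio of PSMB8 to PSMB5 was 0.327 in control and 0.225 after XPR1 siRNA. PSMB9 was 5.89 and 6.64 TPM, or 0.0680 and 0.0563 times its counterpart PSMB6 (86.6 and 118 TPM). PSMB10 was 14.6 and 12.0 TPM, or 0.0368 and 0.0297 times PSMB7 (395.6 and 403.2 TPM). All 3 ratios were lower in the XPR1-siRNA library, though counting intervals of the PSMB9 and PSMB10 levels include equality. No interval of the ratios was computed, and those of PSMB9 and PSMB10 rest on few reads (76 and 83, and 114 and 90). The activator subunits PSME1 and PSME2 were 1.23-fold and 1.24-fold higher, and the assembly factor POMP 1.38-fold higher.

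**Figure D4:**
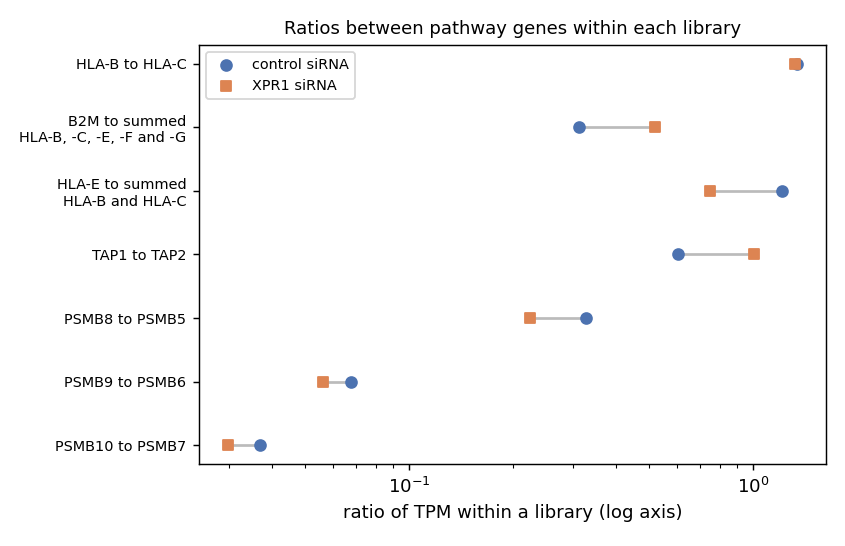
Ratios of TPM between pathway genes within each library on a log axis (circles for control siRNA, squares for XPR1 siRNA). B2M against the summed heavy chains and TAP1 against TAP2 are higher after XPR1 siRNA, the 3 proteasome ratios and HLA-E against HLA-B plus HLA-C are lower, and HLA-B against HLA-C hardly differs (1.34 and 1.33).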

How the data were processed

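RNA of 2 TPC-1 libraries was sequenced after TruSeq RNA v2 preparation, per the labels' protocols. The submitters' processing notes name Trimmomatic 0.38, featureCounts 2.0.0 and GRCh38; no aligner or annotation release is recorded there. The deposited values are the authors' TPM per Ensembl gene, and each column sums to 1000000. Symbols came from a gene name table (58472 of 58884 identifiers), and coordinates and exon-union lengths from GENCODE 29 (58611).

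Differences were taken on log2(TPM + 1) for genes whose mean reached 1 TPM, and differences of at least 1.5-fold were counted. TPM times length fell on multiples of 1 read (to 0.01 of a read in 92.4% and 92.5% of genes at 10 reads or fewer, and in 71.9% and 71.55% of all). These recovered reads, chosen after seeing the data, gave the Clopper-Pearson intervals and the limit of a 0 count (3 reads). They cover counting error only, and PCR copies of a molecule are counted as reads of their own. The differences and intervals were tested on reads simulated with known fold changes.

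The genes and lists were chosen with earlier results of these data known. Named genes are the 9 members, XPR1, up to 6 genes of each list with the largest difference, and both sides of each ratio. Cell type markers, genes that overlap a member, and genes said to lie outside this rule or to be named after their values were seen, are additions to it. With 2 libraries no likeness of pattern can be ranked. 3 genes of the lists are not reported here. Python 3.11.15 and SciPy 1.17.1 were used.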

Additional observations from a re-analysis of the deposited data

How the results depend on the processing

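The counts of 1 class I gene higher and 2 lower held with pseudocounts of 0.1 and 5. They also held with median-of-ratios scaling, upper-quartile scaling and removal of mitochondrial genes. Using no floor, a floor of 5 TPM or protein-coding genes only could not change these counts. All class I members are protein-coding with a mean above 5 TPM (lowest NLRC5, 6.07), so their differences stay the same. TPM recomputed from recovered reads (added after seeing the data) was no independent check, because those reads were derived from the TPM. None of 54 recomputed member values, those from recovered reads included, changed sign. A pseudocount cannot change the sign of a difference, and recovered reads return the deposited TPM. Only the 2 scalings and the removal of mitochondrial genes could have changed a sign. The median over the members was 0.018 with upper-quartile scaling. The counts of all genes moved more: 2076 higher and 1485 lower with a pseudocount of 5, 2077 and 1427 with a floor of 5 TPM, and 1294 lower among protein-coding genes. Of 180 recomputed list counts, 167 stayed within 1.5 times. The cause of these shifts was not tested, though a higher pseudocount shrinks low genes and a floor or gene type leaves fewer genes. No paired analysis was possible because there is only 1 library of each kind, which also leaves no replicate to omit.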

Other observations

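Relatives of class I that present no classical peptide were mostly higher after XPR1 siRNA. Of 14 listed class I-like molecules and ligands of the activating receptor NKG2D, 10 were compared, with a median of 0.93. Among them 8 were at least 1.5-fold higher and 1 was lower (2 with a pseudocount of 0.1). With median-of-ratios or upper-quartile scaling, a pseudocount of 5 or a floor of 5 TPM, 7 were higher. Over all genes compared, 21.7% were higher and 16.6% lower. MICB, a stress-induced ligand, was 0.593 and 4.58 TPM, from 7 and 52 reads. ULBP2 was 5.325 and 17.9 TPM and ULBP3 6.78 and 19.6 TPM, 3.36-fold (2.24 to 5.30) and 2.90-fold (1.88 to 4.69) higher. ULBP1, in the same ligand family, was 24.1 and 7.90 TPM, 3.05-fold lower (2.43 to 3.85). HFE, which regulates iron sensing, was 6.18 and 14.7 TPM, and MR1, which presents vitamin B metabolites, was 18.3 and 36.4 TPM. The remaining higher genes, named after their values were seen, were MICA at 29.5 and 56.1 TPM, PROCR at 35.9 and 61.8 TPM, and FCGRT at 21.0 and 32.3 TPM.

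Of 8 compared checkpoint and co-stimulatory ligands, 2 were higher and 3 lower, beside 21.7% and 16.6% of all genes. CD274, which encodes PD-L1, was 34.4 and 11.7 TPM, 2.94-fold lower (2.50 to 3.475), PDCD1LG2 was 22.7 and 11.8 TPM, and ICOSLG was 15.7 and 4.72 TPM. VSIR was 14.2 and 39.6 TPM, and CD276 was 55.6 and 93.45 TPM. Of 10 compared genes of class I surface turnover, none was higher and 2 were lower (21.7% and 16.6% of all genes), SUSD6 at 78.6 and 27.2 TPM and TRAF3 at 80.9 and 42.5 TPM. Class II genes were near absent: 2 of 13 reached a mean of 1 TPM, HLA-DMA with 3 and 25 reads and the protease CTSS at 11.4 and 3.75 TPM.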
